A study of Homo sapiens with 6 samples.

Results

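The genes described here encode the HLA class I and class II antigen presentation machinery. The list holds 39 genes grouped by name and function and chosen with earlier results of these data known. Of these, 37 were measured among the 19775 genes on the arrays. There were 21 class I genes (heavy chains and B2M, the peptide-loading machinery, the immunoproteasome and the transactivator NLRC5), 16 class II genes (chains, chaperones and peptide editors, and regulators) and the class I-like molecules CD1D and MR1. PSME2, whose probe set is also annotated to another gene, and IFI30 were not analysed here. Each gene was read from the probe set with the highest mean over the 6 arrays among those annotated to it alone.

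The cells were MOLM-14, a human line established from acute myeloid leukaemia, with an MLL-AF9 rearrangement. One group of 3 wells received CA (cortistatin A) at 10 nM, and the other group of 3 received the vehicle DMSO. CA is a steroidal alkaloid first found in a sponge, and it blocks the kinase of the Mediator complex, CDK8 or its paralog CDK19. Both groups were harvested after 24 h, and RNA from each well was read on 1 Affymetrix U133 Plus array. A single line, dose and time were compared, and every p-value here reflects the spread among these wells alone, which may be technical.

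Class I molecules show peptides from the cytosol to CD8 T cells. The proteasome cuts proteins into peptides, the TAP transporter moves them into the endoplasmic reticulum, aminopeptidases trim them, and tapasin and its partners load them onto a heavy chain paired with beta-2 microglobulin. Class II molecules show peptides from endosomes to CD4 T cells: the invariant chain CD74 guards the groove until HLA-DM exchanges its remnant for peptide, and HLA-DO restrains HLA-DM. Interferon-gamma, acting in part through IRF1, is the classical inducer of both arms. NLRC5 and CIITA are the master coactivators of class I and class II genes, and both act on promoters through the RFX and NF-Y factors.

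After CA, part of the machinery that makes and loads peptides rose, while none of the measured class I heavy chains or class II chains passed the test. Calls were made by limma, at an adjusted p under 0.05 after Benjamini-Hochberg adjustment over all genes. Of the 37 measured genes, 13 were called higher after CA and 0 lower (35.1% called), against 11.1% of all genes (6.64% higher and 4.49% lower). As the list was chosen with earlier results of these data known, its share is a description and not a test. Of all calls 59.7% were higher, or 73.0% when the arrays were centred on reference genes, and none of the 37 genes changed its call under that centring. The median log2 change was 0.08 over the 37 genes and -0.0034 over all genes. The CA and DMSO arrays did not overlap for 24 of the 37 genes, against 31.8% of all genes. All 13 calls were under a doubling: the largest was TAP1 at 1.57-fold and the smallest CALR at 1.12-fold.

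The class I arm held 9 of these calls among 20 measured genes (45%, against 11.1% of all genes), with a median log2 change of 0.12. The class II arm held 4 among 15 (26.7%), with a median of 0.03. The gap between the medians depended on the probe sets: when each gene was averaged over its probe sets, the class I median was 0.049 and the class II median 0.033. Without probe sets that can cross-hybridise, the class I median was 0.138 and the class II median -0.044. With 1 array left out, class I stayed above class II. The medians were 0.126 and 0.063 without DMSO replicate 1, and 0.134 and 0.066 without CA replicate 1. Averaged over genes and expressed against the DMSO mean, the class I arm stood at 0.13 ± 0.02 (SD, n = 3) on the CA arrays and the class II arm at 0.09 ± 0.02. The difference of the arms, class I minus class II, ran from 0.02 to 0.06 on the CA arrays and from -0.01 to 0.02 on the DMSO arrays, a small gap for which no test was made. Inside the class I arm the role groups lay further apart, from -0.05 ± 0.01 for the heavy chains with B2M to 0.22 ± 0.03 for the loading genes (SD, n = 3 CA arrays).

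**Figure D1:**
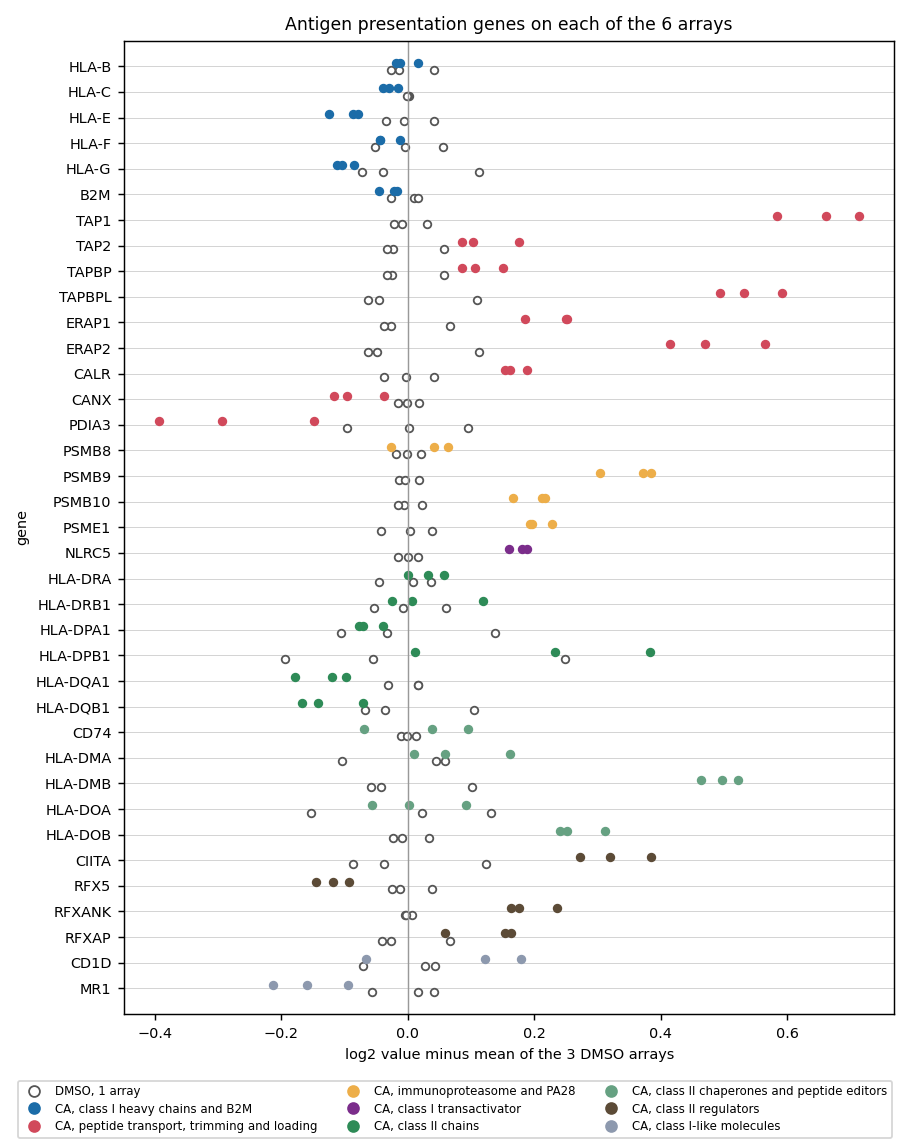
Log2 value of each of the 37 measured genes on every array minus the mean of its 3 DMSO arrays, with DMSO arrays as open circles and CA arrays as filled circles coloured by role. The CA arrays of TAP1, TAPBPL, ERAP2, HLA-DMB, PSMB9 and CIITA stand well to the right of the DMSO arrays, while those of HLA-B, B2M and HLA-DRA lie near 0 and overlap with DMSO. The arrays of HLA-DPB1 are widely spread in both groups.

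The number of calls fell with any 1 array left out, over all genes as well as among the 37 genes. Over all genes, higher calls fell from 1314 to between 721 and 848, and lower calls from 888 to between 435 and 495. Among the 37 genes, the number of calls fell from 13 to 9 without DMSO replicate 2. It fell to 7 without DMSO replicate 1 or CA replicate 1. It fell to 6 without DMSO replicate 3, CA replicate 2 or CA replicate 3. The calls of 6 genes held with any 1 array left out: TAP1, TAPBPL, ERAP2, PSMB9, HLA-DMB and HLA-DOB.

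The class I heavy chains present the peptide, and B2M is the light chain that every one of them needs to fold and reach the surface. None of the 6 was called (0 of 6, beside 11.1% of all genes), and their log2 changes lay between -0.10 and -0.0049. HLA-B, a classical heavy chain, stood at 12.90, 12.89 and 12.96 on the DMSO arrays and at 12.90, 12.90 and 12.93 on the CA arrays. Its change was -0.0049 with a 95% confidence interval of -0.10 to 0.09 (adjusted p = 0.958, limma). B2M stood at 14.04, 14.01 and 14.05 on the DMSO arrays and at 14.01, 13.99 and 14.02 on the CA arrays. The groups overlapped, and the interval of its change ran from -0.11 to 0.06 (adjusted p = 0.689, limma). On the array scale at these probe sets, the interval of both genes leaves out a rise of the size seen in PSMB9 or TAP1. Both probe sets are brighter than those of PSMB9 (DMSO mean 10.44) and TAP1 (8.89). How fully such bright probe sets follow a rise of RNA was not tested. A dimmer probe set of B2M, however, gave 0.24 with an interval of -0.01 to 0.48 (adjusted p = 0.271 in a limma fit over all probe sets), which does not leave out the size seen in PSMB9.

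HLA-C, the other classical chain measured, changed by -0.03 (adjusted p = 0.675, limma). Among the non-classical chains, HLA-F changed by -0.03 and HLA-G, an inhibitory ligand best known from the placenta, by -0.10. HLA-E, which presents leader peptides of other class I chains to the NK cell receptor NKG2A, had the lowest adjusted p of the group, 0.180 by limma, with a change of -0.10. It stood at 11.71, 11.69 and 11.76 on the DMSO arrays and at 11.64, 11.59 and 11.63 on the CA arrays, so the groups did not overlap. Across all probe sets of these 6 genes, 19 of 20 had a negative change and 0 were called. The sign was not stable to the scaling: centred on reference genes, 3 of the 6 genes had a positive change, and centred on array medians 1 did. Many of these probe sets (17 of 20) have a suffix that marks possible cross-hybridisation between related transcripts, so heavy chains cannot be fully told apart.

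TAP1 and TAP2 form the transporter that feeds peptides to class I, and TAP1 had the largest change of all 37 genes. TAP1 stood at 8.92, 8.88 and 8.87 on the DMSO arrays and at 9.47, 9.55 and 9.60 on the CA arrays. Every CA array was well above every DMSO array. The log2 change was 0.65 ± 0.05 (SE, n = 3 per group), or 1.57-fold (adjusted p = 4.52e-04, limma), which ranked 160 among all genes by size of rise. TAP2 stood at 8.78, 8.77 and 8.86 and then at 8.89, 8.91 and 8.98, a change of 0.12 that was not called (adjusted p = 0.156, limma). The groups of TAP2 did not overlap, but the gap between them was small beside that of TAP1. A dimmer probe set of TAP2 gave 0.48 and was not called either in a limma fit over all probe sets.

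Tapasin (TAPBP) bridges TAP and the heavy chain, and TAPBPL encodes TAPBPR, a related editor of class I peptides that works outside that complex. TAPBPL stood at 6.96, 7.14 and 6.98 on the DMSO arrays and at 7.52, 7.56 and 7.62 on the CA arrays. It rose by 0.54 ± 0.06 (SE, n = 3 per group), or 1.45-fold (adjusted p = 0.00258, limma). Its other probe set gave 0.32 with an adjusted p of 0.0520 in a limma fit over all probe sets. TAPBP itself changed by 0.11 and was not called (adjusted p = 0.157, limma). TAPBPL was called and tapasin was not, and the difference between their changes was not tested.

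ERAP1 and ERAP2 are the aminopeptidases that trim peptides in the endoplasmic reticulum. ERAP2 stood at 9.90, 10.08 and 9.91 on the DMSO arrays and at 10.38, 10.53 and 10.43 on the CA arrays. It rose 1.40-fold (log2 change 0.48, adjusted p = 0.00586, limma), and 3 of its 5 probe sets were called. ERAP1 was called at 0.23 (adjusted p = 0.0241, limma), but it is a weaker case: 1 of its 5 probe sets was called, and a dim one gave -0.25. Its call was lost without DMSO replicate 1 or 3 or any CA replicate, with adjusted p-values from 0.0526 to 0.0887.

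The lectin chaperones CALR and CANX fold the heavy chain, and PDIA3 (ERp57) is the oxidoreductase of the loading complex. CALR was called at 0.17 (adjusted p = 0.0396, limma), and no longer passed when any 1 array was removed (adjusted p 0.0623 to 0.125). In the fit over all probe sets, none of its 3 probe sets passed. CANX changed by -0.08 (adjusted p = 0.240, limma). PDIA3 stood at 10.71, 10.52 and 10.62 on the DMSO arrays and at 10.22, 10.32 and 10.47 on the CA arrays, a change of -0.28 that was not called (adjusted p = 0.0718, limma). All CA arrays were below all DMSO arrays, and PDIA3 was called lower when genes with a mean log2 under 5 were left out (adjusted p = 0.0412, limma). In all, 5 of the 9 transport, trimming and loading genes were called, all higher (55.6%, against 11.1% of all genes). Among them, the calls of ERAP1 and CALR were lost in most or all fits with 1 array left out. CANX and PDIA3 were the ones with a negative change.

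**Figure D2:**
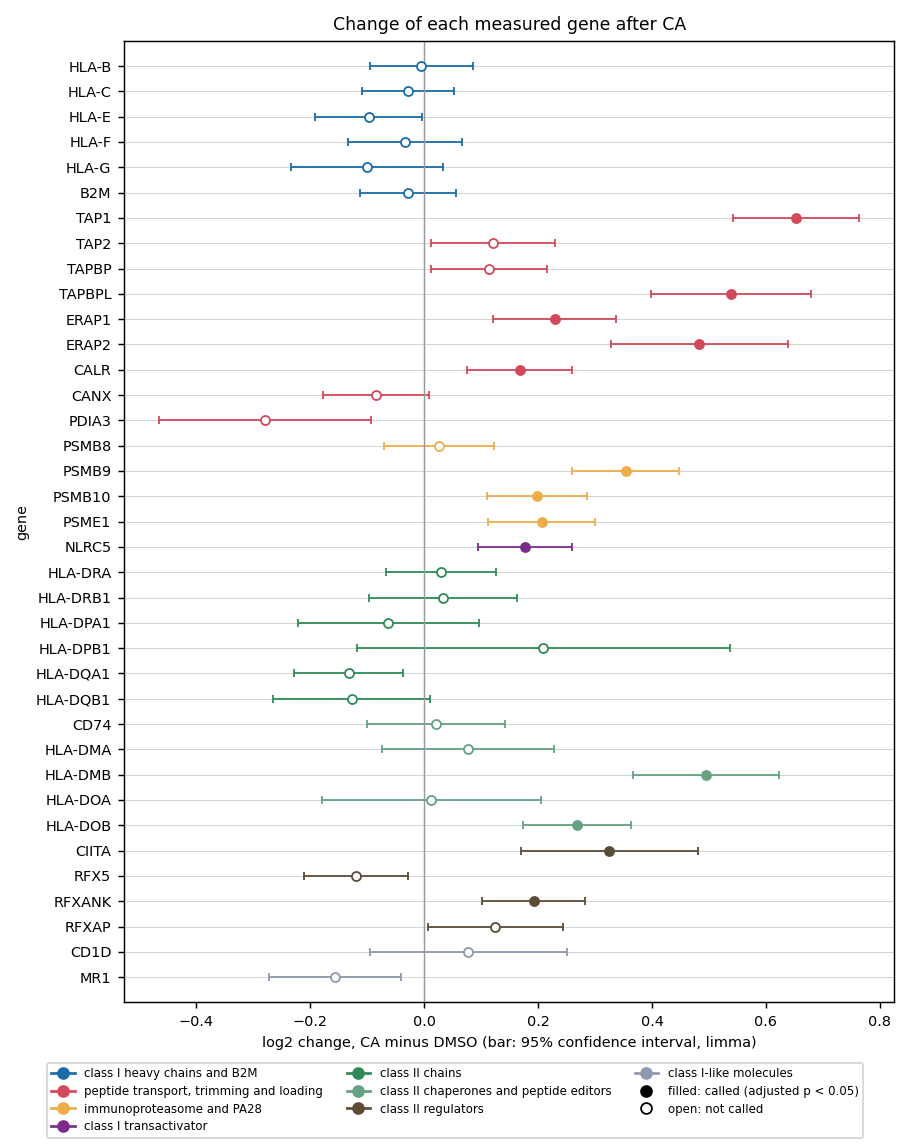
Log2 change (CA minus DMSO) of each measured gene with its 95% confidence interval from limma, filled where the gene was called and coloured by role. The calls lie in the loading, immunoproteasome, transactivator, peptide editor and regulator groups, and none lies among the heavy chains with B2M or the class II chains.

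The immunoproteasome replaces the catalytic subunits of the constitutive proteasome with PSMB8, PSMB9 and PSMB10, and PSME1 is a subunit of the PA28 cap that favours the release of peptides. PSMB9 stood at 10.46, 10.43 and 10.44 on the DMSO arrays and at 10.75, 10.83 and 10.82 on the CA arrays. It rose by 0.35 ± 0.04 (SE, n = 3 per group), or 1.28-fold (adjusted p = 0.00278, limma). PSMB10 rose by 0.20 (adjusted p = 0.0191, limma) and PSME1 by 0.21 (adjusted p = 0.0205, limma). Both were separated from DMSO on every array, but the call of PSMB10 was lost without DMSO replicate 1 or 3 or CA replicate 2 or 3 (adjusted p up to 0.0756), and that of PSME1 without each array other than DMSO replicate 1 (up to 0.0745). PSMB8 did not follow: it stood at 11.72, 11.68 and 11.70 and then at 11.67, 11.74 and 11.76, with overlapping groups and a change of 0.03 (adjusted p = 0.756, limma). So 3 of the 4 measured genes of this group were called, all higher (75%, against 11.1% of all genes).

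The subunits that the immunoproteasome displaces gave a reference for this group. PSMB5, PSMB6 and PSMB7 changed by 0.08, 0.03 and 0.03, with adjusted p-values of 0.305, 0.787 and 0.598 (limma). With PSME3, PSME4 and POMP, which are not displaced subunits, they formed a list of 6 proteasome genes. None of these was called (0 of 6, beside 11.1% of all genes), and the median change of that list was 0.10. PSME3, PSME4 and POMP changed by 0.13, 0.12 and 0.13. The list median was thus positive although no single gene passed the test. The CA and DMSO arrays did not overlap for 5 of these 6 genes, against 31.8% of all genes.

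NLRC5, the class I transactivator, stood at 8.983, 8.967 and 8.999 on the DMSO arrays and at 9.164, 9.143 and 9.171 on the CA arrays. The arrays of each group lay close together and the groups were apart. The change was 0.18 (adjusted p = 0.0232, limma), and the gene no longer passed when any 1 array was removed (adjusted p 0.0679 to 0.0799).

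**Figure D3:**
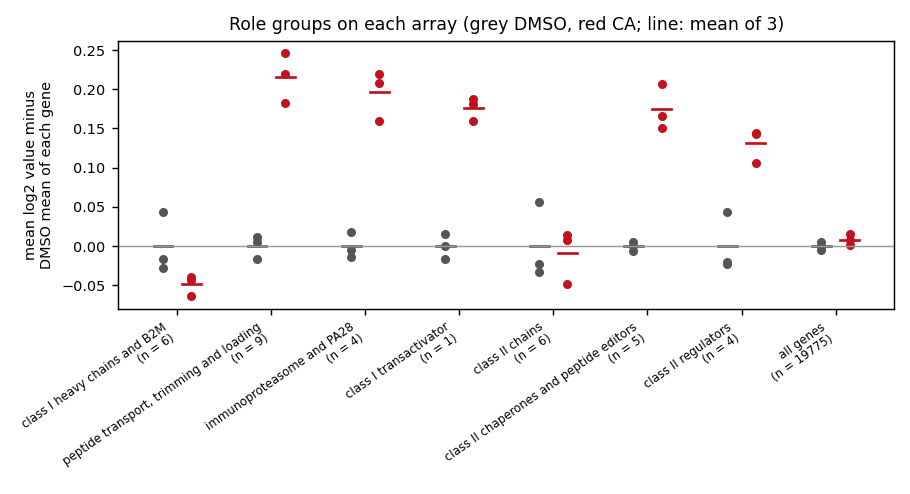
Mean over the genes of each role group of the log2 value minus the DMSO mean of the gene, for each DMSO array (grey) and each CA array (red), with the mean of 3 as a line and all genes at the right. The loading group lies between 0.18 and 0.25 on the CA arrays and the heavy chains with B2M between -0.06 and -0.04, while the class II chains overlap with DMSO.

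The class II chains form the peptide-binding HLA-DR, HLA-DP and HLA-DQ dimers. None of the 6 was called (0 of 6, beside 11.1% of all genes), and 3 had a positive and 3 a negative change. HLA-DRA, the chain shared by all HLA-DR molecules, stood at 9.97, 10.06 and 10.03 on the DMSO arrays and at 10.08, 10.02 and 10.05 on the CA arrays. The groups overlapped, and the change of 0.03 had an interval of -0.07 to 0.13 (adjusted p = 0.714, limma). HLA-DRB1, its partner, also changed by 0.03 with overlapping groups. HLA-DPA1 changed by -0.06, and HLA-DPB1 by 0.21 with a wide interval of -0.12 to 0.54 (adjusted p = 0.408, limma). HLA-DQA1 and HLA-DQB1 both changed by -0.13 with groups that did not overlap, and neither was called (adjusted p = 0.0905 and 0.233, limma). HLA-DQA1 had a mean log2 under 5, the single measured gene of the 37 that did, near the lower quartile of all values (4.12). Its small difference therefore rests on a dim signal.

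Among the genes that chaperone and edit class II peptides, 2 of 5 were called (40%, against 11.1% of all genes). Both were chains of the peptide editors. HLA-DMB, the beta chain of HLA-DM, stood at 7.42, 7.26 and 7.27 on the DMSO arrays and at 7.81, 7.78 and 7.84 on the CA arrays. It rose by 0.49 ± 0.05 (SE, n = 3 per group), or 1.41-fold (adjusted p = 0.00255, limma). Its partner HLA-DMA stood at 7.58, 7.42 and 7.57 and then at 7.58, 7.53 and 7.69, a change of 0.08 with overlapping groups (adjusted p = 0.521, limma). The intervals of the chains of this dimer, 0.37 to 0.62 for HLA-DMB and -0.07 to 0.23 for HLA-DMA, did not meet, and the difference between their changes was not tested directly.

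Of HLA-DO, too, the beta chain was called and the alpha chain was not. HLA-DOB, the beta chain of HLA-DO, stood at 7.86, 7.92 and 7.88 on the DMSO arrays and at 8.14, 8.13 and 8.20 on the CA arrays, a rise of 0.27 (adjusted p = 0.00860, limma). HLA-DOA changed by 0.01 with overlapping groups (adjusted p = 0.948, limma). HLA-DOB has a dimmer probe set too, at which the change was -0.04 (adjusted p = 0.902 in the limma fit over all probe sets). The invariant chain CD74 changed by 0.02 (adjusted p = 0.849, limma).

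CIITA, without which class II genes are not transcribed, stood at 6.06, 6.22 and 6.01 on the DMSO arrays and at 6.42, 6.48 and 6.37 on the CA arrays. It rose by 0.33 ± 0.06 (SE, n = 3 per group), or 1.25-fold (adjusted p = 0.0243, limma). The call was lost without DMSO replicate 1 or 3 or any CA replicate (adjusted p 0.0577 to 0.0820), and its other 2 probe sets gave 0.06 and 0.03 at dim levels. RFXANK, a subunit of the RFX complex that binds the X box, rose by 0.19 (adjusted p = 0.0232, limma), but did not pass with any 1 array removed (0.0542 to 0.0825). The other RFX subunits were not called: RFXAP changed by 0.13 (adjusted p = 0.178, limma) and RFX5 by -0.12 (adjusted p = 0.106, limma). So 2 of the 4 class II regulators were called, beside 0 of the 6 class II chains and 11.1% of all genes. Both regulator calls were lost in most or all fits with 1 array left out. The counts of these small groups were not compared by a test.

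CD1D, which presents lipids to NKT cells, changed by 0.08 with overlapping groups (adjusted p = 0.577, limma). MR1, which presents vitamin B metabolites to MAIT cells, changed by -0.16 with groups apart (adjusted p = 0.0971, limma), but 2 of its other probe sets gave 0.16 and 0.23. Neither gene was called. Taken per probe set, 13 of the 101 probe sets of the measured genes were called higher and 0 lower, against 6.55% of all probe sets with 1 gene symbol.

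**Figure D4:**
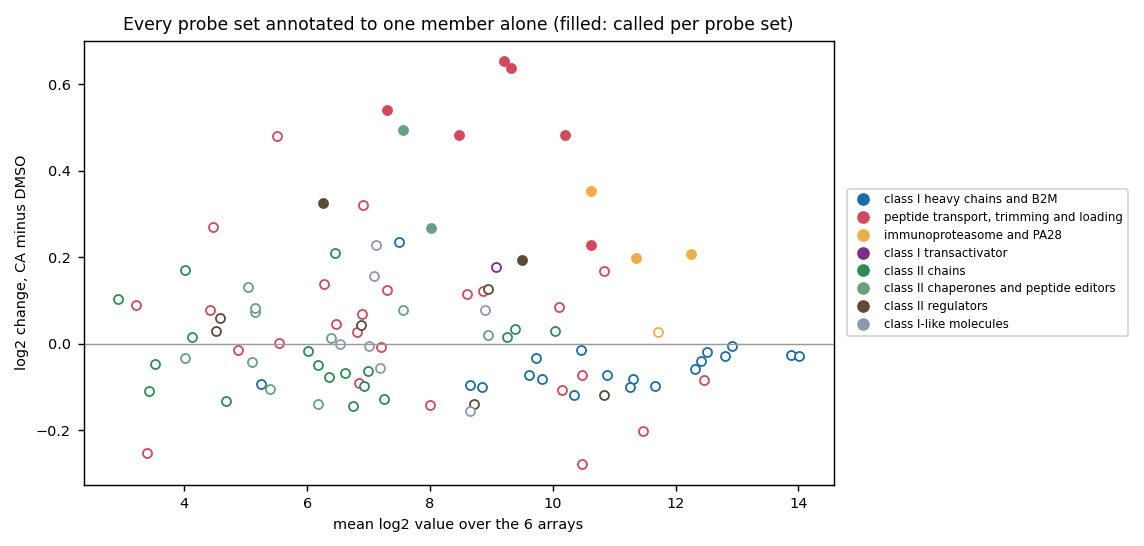
Log2 change against mean log2 value for each of the 101 probe sets annotated to 1 of the genes alone, coloured by role and filled where the probe set was called over all probe sets. Of the 20 probe sets of the heavy chains and B2M, 19 lie between -0.12 and 0 and 1, of B2M, at 0.24, whereas those of the loading group spread from -0.28 to 0.65.

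Of the 9 measured genes of interferon-gamma signalling, 4 rose and 1 fell (55.6% called, against 11.1% of all genes). IRF1, the interferon-induced factor that binds class I and TAP1 promoters, stood at 8.33, 8.17 and 8.26 on the DMSO arrays and at 9.83, 9.83 and 9.84 on the CA arrays, a rise of 2.99-fold (adjusted p = 3.15e-05, limma). IRF8, a myeloid and lymphoid member of the same family, rose 1.52-fold (adjusted p = 2.07e-04, limma), and IRF2 rose 1.36-fold (adjusted p = 0.0216, limma). SOCS1, a feedback inhibitor of the JAK kinases, rose 1.64-fold (adjusted p = 0.00756, limma), while the kinase JAK1 fell by 0.23 on the log2 scale (adjusted p = 0.00881, limma). Among the 7 measured promoter factors and coactivators, which include the NF-Y subunits, 1 was called (14.3%, near the 11.1% of all genes). This was KAT2B, a histone acetyltransferase, which fell by 0.46 (adjusted p = 0.0146, limma).

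Of 7 further cytosolic and endoplasmic reticulum genes, 1 was called (14.3%, against 11.1% of all genes): SEC61A1, the channel of the translocon, rose by 0.16 (adjusted p = 0.0374, limma). Of 10 endolysosomal genes, 0 rose and 3 fell, against 4.49% of all genes called lower. CTSS, the cathepsin that cleaves the invariant chain, fell by 0.34 (adjusted p = 0.00583, limma), CTSB, another cathepsin, by 0.21 (adjusted p = 0.0205), and SPPL2A, the protease that clears the CD74 remnant, by 0.21 (adjusted p = 0.0268). All 3 are endolysosomal proteases.

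Surface partners of presentation were mixed. Of 10 costimulatory and checkpoint ligands, 4 were called, all higher (40%, against 11.1% of all genes). ICAM1, the adhesion ligand of LFA-1, rose by 0.55 (adjusted p = 9.44e-04, limma). TNFSF9 (4-1BB ligand) rose by 0.29, ICOSLG by 0.24 and CD58, the ligand of CD2, by 0.23. Of 7 ligands of NK cell receptors, 1 was called (14.3%, near the 11.1% of all genes). This was MICB, a stress ligand of NKG2D, which rose by 0.40 (adjusted p = 0.00264, limma). None of the 4 other CD1 genes was called (0 of 4, beside 11.1% of all genes).

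Many of the genes lie together in the major histocompatibility complex on chromosome 6, and TAP1, PSMB9, HLA-DMB and HLA-DOB are near neighbours there. From HLA-F to HLA-DPB1, 99 protein-coding genes were measured, of which 12 were called higher and 4 lower (16.2%, against 11.1% of all genes). The 19 antigen presentation genes among them held 4 of the higher calls (21.1%). The 80 other genes held 8 higher and 4 lower calls (15%). The 4 calls of antigen presentation genes lay in the run of 6 genes from HLA-DOB through TAP2, PSMB8, TAP1 and PSMB9 to HLA-DMB. This run was singled out after the values were seen. TAP2 and PSMB8, which lie inside this run, were not called. The largest rises of the region were in genes outside antigen presentation, the cytokines LTB (2.04) and TNF (1.68), named here after their values were seen.

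**Figure D5:**
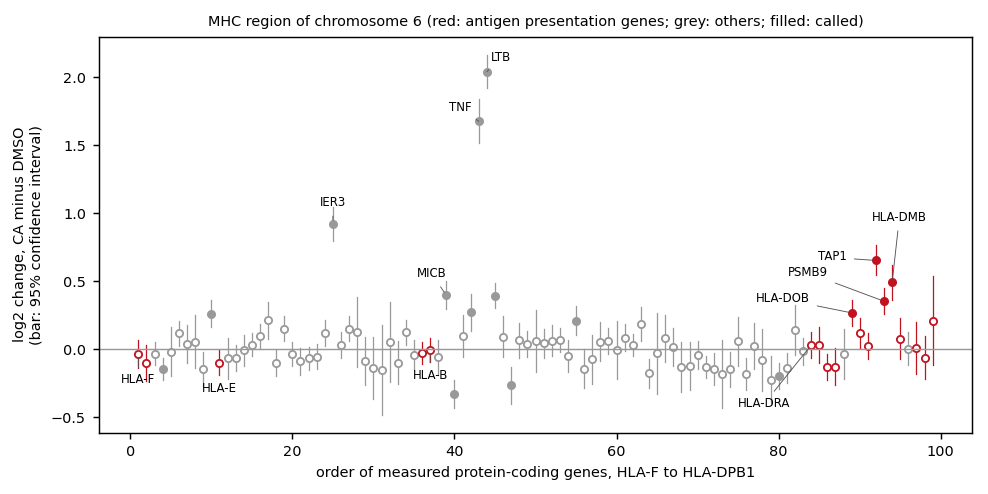
Log2 change (CA minus DMSO) with its 95% confidence interval for the 99 measured protein-coding genes from HLA-F to HLA-DPB1, in their order on chromosome 6, with antigen presentation genes in red, others in grey and called genes filled. The red calls are HLA-DOB, TAP1, PSMB9 and HLA-DMB at the right, and LTB and TNF stand highest.

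The promoters of the genes were compared for short motifs of the factors named above. The sequences below, from RefSeq on build GRCh38.p14, are the 250 bases before the start site of 3 genes that rose (TAP1, PSMB10, HLA-DMB) and of 2 that were not called (B2M, HLA-DRB1), shown because the same motifs occur in both kinds. They are TAP1 at chr6:32853705-32853954 (minus strand), PSMB10 at chr16:67936851-67937100 (minus strand), HLA-DMB at chr6:32941029-32941278 (minus strand), B2M at chr15:44711267-44711516 (plus strand) and HLA-DRB1 at chr6:32589849-32590098 (minus strand). Each is written 5′ to 3′ on the strand of its gene, and capitals mark matches to the IRF-like motif GAAANNGAA, the NF-Y box CCAAT or the X1-like motif GNAACNGNT on either strand.
TAP1: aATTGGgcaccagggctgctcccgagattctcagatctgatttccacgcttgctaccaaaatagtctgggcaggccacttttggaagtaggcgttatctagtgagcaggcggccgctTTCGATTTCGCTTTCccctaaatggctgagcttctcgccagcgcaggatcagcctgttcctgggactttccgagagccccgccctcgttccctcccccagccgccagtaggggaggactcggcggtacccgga
PSMB10: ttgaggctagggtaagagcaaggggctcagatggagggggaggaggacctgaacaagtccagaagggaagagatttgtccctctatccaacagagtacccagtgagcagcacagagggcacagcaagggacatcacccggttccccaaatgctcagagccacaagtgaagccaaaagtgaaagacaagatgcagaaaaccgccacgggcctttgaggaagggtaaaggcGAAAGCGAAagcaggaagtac
HLA-DMB: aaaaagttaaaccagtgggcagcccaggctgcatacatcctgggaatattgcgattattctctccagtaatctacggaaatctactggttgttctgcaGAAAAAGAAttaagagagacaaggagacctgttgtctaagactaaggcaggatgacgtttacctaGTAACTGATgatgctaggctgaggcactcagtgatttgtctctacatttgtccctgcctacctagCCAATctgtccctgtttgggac
B2M: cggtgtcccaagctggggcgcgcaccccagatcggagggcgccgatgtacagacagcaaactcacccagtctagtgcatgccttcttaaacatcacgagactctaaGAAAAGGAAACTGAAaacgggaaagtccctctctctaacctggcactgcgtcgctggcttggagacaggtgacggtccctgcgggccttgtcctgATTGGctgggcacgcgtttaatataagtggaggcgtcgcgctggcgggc
HLA-DRB1: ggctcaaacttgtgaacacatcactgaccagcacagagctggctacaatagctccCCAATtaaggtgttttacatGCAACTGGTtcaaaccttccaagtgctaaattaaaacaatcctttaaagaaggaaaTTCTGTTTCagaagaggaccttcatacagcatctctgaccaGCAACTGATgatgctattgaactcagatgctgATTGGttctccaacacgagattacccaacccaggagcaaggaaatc

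In TAP1 the long run of capitals is a pair of overlapping IRF-like matches on the reverse strand, the nearer of which begins 127 bases before the start site. B2M holds a like pair, 144 and 138 bases before its start, and PSMB10 a single match 21 bases before it. HLA-DMB and HLA-DRB1 each hold an X1-like match (87 and 78 bases before the start) upstream of an NF-Y box (22 and 46 bases), the order known from class II promoters. Matches in another order occur too. In HLA-DRB1 an NF-Y box 195 bases before the start lies upstream of an X1-like match at 175. HLA-DMB has a further X1-like match after the start site, beyond the printed bases. These 5 genes were picked to show the motifs in genes that rose and in genes that were not called, so they say nothing on how often either kind holds them. TAP1 and PSMB9 are transcribed away from each other, with start sites 488 bases apart, and both rose.

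A RefSeq promoter window (300 bases, from 250 before to 50 after the start site) was found for 34 of the 39 genes. The IRF-like motif was present in 11 of these 34 (32.4%), against 8.32% of all 27305 promoter windows of the same length. It was present in 4 of the 11 genes that rose with a window (TAP1, PSMB10, PSME1 and HLA-DMB) and in 6 of the 21 that were not called. The NF-Y box was in 20 of 34 windows (58.8%, against 35.7% of all), the X1-like motif in 4 (11.8%, against 9.46%), and the GAS-like motif TTCNNNGAA in 1 (2.94%, against 7.88%). No match of one motif overlapped a match of another in these windows. These are descriptions of letters in a short window, and binding was not measured.

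The cell type on the label was checked against marker lists, since other cells could carry antigen presentation genes. The summed log2 level of 10 myeloid markers was 79.9 to 80.3 on the DMSO arrays and 79.1 to 79.6 on the CA arrays, and CD4, CSF1R and ITGAM fell, with FCGR1A under the lower quartile of all values. The sum of 8 dendritic cell markers was 43.2 to 43.8 and then 45.0 to 45.3, with IL3RA and FSCN1 higher and CLEC4C and LAMP3 under that quartile. The sum of 4 B cell markers went from between 25.4 and 25.6 to between 25.8 and 26.1, with PAX5 higher, and that of 6 T and NK cell markers from between 33.9 and 34.8 to between 35.7 and 35.8, with NCAM1 and GNLY higher and CD3G under the lower quartile. The part of these shifts in the changes above was not tested. In a bulk sample, a change in the share of cells and a change in RNA per cell cannot be told apart. The 3' to 5' difference of the GAPDH control probe sets, a sign of RNA quality, was 0.38 ± 0.02 on the DMSO and 0.48 ± 0.05 on the CA arrays (SD, n = 3). By an exact permutation test, 2-sided, p was 0.1, which is the smallest that 3 against 3 arrays allow. The same difference for the ACTB control probe sets was 2.27 ± 0.13 on the DMSO and 2.38 ± 0.07 on the CA arrays (SD, n = 3). Its p by the same exact permutation test was 0.3. The part of RNA quality in the changes above was not tested either.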

How the data were processed

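Expression was measured on 6 arrays, 3 per group. The authors deposited log2 values per probe set; the submitters' processing notes name RMA and affy, without versions. RMA values carry no detection calls, and RMA compresses fold changes. The labels give no RNA kit per sample, so a kit effect cannot be told apart. The number of arrays limits the precision.

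Of 54675 probe sets, 41091 had 1 gene symbol in the platform annotation; the others were left out. The probe set with the highest mean over the 6 arrays stood for each gene (19775 genes). The comparison used lmFit and eBayes of limma 3.58.1 (R 4.3.3), 2-sided and without covariates, with Benjamini-Hochberg adjustment over all genes; the fit was tested on simulated data. Every measured member was named, with up to 4 called genes of each pathway list and PSMB5, PSMB6, PSMB7 and IRF1. Members and lists were chosen with earlier results of these data known. Alternatives changed the probe set, the filter, the centring, the variance model, the block and each array.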

Additional observations from a re-analysis of the deposited data

How the results depend on the processing

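With other settings the counts moved as follows. With the probe set of largest variance, 841 genes were called higher and 570 lower, among them 6 members higher (4 class I and 2 class II). Without probe sets of the _x_at and _s_at kinds, 770 genes were called higher and 566 lower, with 8 of 29 members higher (2 class II), and the median change was 0.14 for class I and -0.044 for class II. With the mean of all probe sets, 2 class II members were called higher and the class I median was 0.049. ERAP1 changed by -0.25 with the probe set of largest variance and at that probe set in the fit per probe set; HLA-DOB changed by -0.041 in both and without the _x_at and _s_at kinds. Leaving out genes with a mean log2 under 5 called 2 members lower (1 class I, PDIA3, and 1 class II, RFX5). A minimum of 6 called 3 members lower (1 class I, 1 class II, and MR1) and 1539 of all genes lower. An intensity trend with robust moderation called 2119 genes higher and 1695 lower, with 5 members lower (3 class I: HLA-E, CANX and PDIA3; 1 class II: RFX5; and MR1). Centred on reference genes, the class I median was 0.15 and 73.0% of all calls were higher, against 59.7% in the values as deposited; all 37 members kept their call there, on array medians and with array weights.

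Same-numbered wells did not deviate together (correlations 0.0225, 0.0299 and 0.0245), and not every sample correlated best with its own number, so they share only a number. With the replicate block, 716 genes were called higher and 402 lower, with 7 members higher, 4 of them class I. With 1 array left out, 721 to 848 genes were higher and 435 to 495 lower, 6 to 9 members higher (4 to 6 class I, 2 to 3 class II) and 0 lower; the medians were 0.10 to 0.13 for class I and 0.03 to 0.07 for class II. The cause of these shifts was not tested. TAP1, TAPBPL, ERAP2, PSMB9, HLA-DMB and HLA-DOB kept their calls in each of these settings other than those that change the probe set.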
